A study of Mus musculus with 22 samples.

Results

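The genes described here are 8 sensors of foreign or displaced nucleic acid and their adaptor, measured in the livers of 22 mice: Zbp1, Ddx58 (current symbol Rigi), Ifih1, Dhx58, Eif2ak2, Ddx60, Tlr3 and Mavs. They were chosen by name, with earlier results of these data known. All probe sets that the array annotation assigns to them were taken: 18 of the 45101 probe sets on the array, or 8 of the 18194 genes tested. Counts of members set beside the share of all genes therefore describe these genes and do not test for an excess. All 8 genes passed into the tests, since no filter on low values was set. The group is known as the cytosolic sensors, but Tlr3 reads its ligand inside endosomes and Mavs is an adaptor on the mitochondrial surface rather than a sensor.

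Liver RNA was hybridised to Affymetrix arrays, 1 array per animal. At 5 weeks of age there were 4 Trim24-/- Rara+/- mice (animals 54, 66, 73 and 82), 4 Trim24-/- mice (animals 1, 6, 8 and 37) and 4 wild-type (WT) mice (animals 2, 44, 45 and 90). At 14 weeks of age there were 5 Trim24-/- mice and 5 WT mice. All came from intercrosses on a mixed C57BL/6 and 129/Sv background and were housed free of specific pathogens. Trim24 encodes a transcriptional cofactor of nuclear receptors, and Rara encodes retinoic acid receptor alpha. The Trim24 disruption is present in every cell of the body rather than in 1 cell type, the Rara+/- animals keep 1 intact Rara allele, and no Rara+/- mice with intact Trim24 were among the groups. The comparisons ask how loss of Trim24 changes the liver at each age, and whether loss of 1 Rara allele alters that change.

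As background, Ddx58 and Ifih1 are RNA helicases that bind double-stranded RNA in the cytosol and pass the signal to Mavs, which starts the production of type I interferons. Interferons in turn raise the transcription of most of these sensors, so that their mRNA levels are widely read as part of the interferon response. Zbp1 binds nucleic acids in the left-handed Z form and can start necroptosis, Eif2ak2 (PKR) halts translation when it binds double-stranded RNA, and liver cells of several types carry these genes.

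The control region of such genes often holds an interferon-stimulated response element, and its letters are shown for the sensors that have it. RefSeq promoter windows (build GRCm38.p6, 250 bases before to 50 after the transcription start) were at hand for 6 of the 8 genes, not for Zbp1 and Dhx58. The core motif GAAANNGAAA, searched on both strands, was found in the windows of 4 of these 6 genes, against 3.44% of 32851 windows in all. The 4 stretches below hold the match in capitals. Each runs 5′ to 3′ on the strand of its gene, and the Ddx58 match reads as the motif on the opposite strand.
Ifih1, chr2:62646206-62646235, minus strand: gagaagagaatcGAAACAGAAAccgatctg
Ddx58, chr4:40239804-40239833, minus strand: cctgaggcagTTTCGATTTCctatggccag
Eif2ak2, chr17:78882535-78882564, minus strand: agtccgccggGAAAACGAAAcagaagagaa
Ddx60, chr8:61927837-61928116, plus strand: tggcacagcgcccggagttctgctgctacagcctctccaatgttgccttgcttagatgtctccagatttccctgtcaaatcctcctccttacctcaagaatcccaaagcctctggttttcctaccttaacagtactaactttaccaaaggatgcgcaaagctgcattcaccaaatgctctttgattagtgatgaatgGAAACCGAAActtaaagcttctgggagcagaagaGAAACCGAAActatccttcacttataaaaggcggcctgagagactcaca
Counted from the transcription start, the match lies at bases 33 to 42 for Ifih1, 3 to 12 for Ddx58 and 19 to 28 for Eif2ak2. Ddx60 holds 2 matches, at -53 to -44 and at -19 to -10. The windows of Tlr3 and Mavs hold none. The signal of Tlr3 was higher in every Trim24-/- liver than in any WT liver at 5 weeks, as for 3% of all genes, without being called. Whether the motif bears on the signal of any member was not tested. The Mavs window is shown because the signal of its tested probe set (1451176_at) overlapped between all groups. Since it was picked by that signal, it is no test of the motif.
Mavs, chr2:131233813-131234092, plus strand: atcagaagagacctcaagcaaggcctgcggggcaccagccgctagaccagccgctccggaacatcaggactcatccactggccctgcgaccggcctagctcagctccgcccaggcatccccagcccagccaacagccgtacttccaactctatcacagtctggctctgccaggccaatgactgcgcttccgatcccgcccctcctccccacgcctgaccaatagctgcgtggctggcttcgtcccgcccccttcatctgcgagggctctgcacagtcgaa
The motif TTCNNNGAA of the signal transducers (STAT proteins) was in the Eif2ak2 window alone, at -178 to -170, against 8.3% of all windows. The retinoic acid receptor half-sites AGGTCA and AGTTCA, held by 16.3% and 14.0% of all windows, were in none of the 6. A match describes letters and is not evidence of binding, and a missing match says nothing about a factor outside these bases.

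Values are the authors' linear signal, scaled by them to a common level on every array. Differences are given on the log2(signal + 16) scale, which understates the change of dim genes, and each fold is 2 to the power of such a difference. For each gene, the probe set brightest on average was tested. A gene is said to rise or fall only where limma's adjusted p (Benjamini-Hochberg over all 18194 genes) was under 0.05. Errors are SD for signals and SE for log2 differences. Because whole liver was measured, more cells that express a gene and more RNA per cell cannot be told apart in any of these results.

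At 5 weeks, Zbp1 rose in Trim24-/- livers, and it was the only one of the 8 genes to pass the test, while the estimates of 6 others were also positive. Ddx58, Ifih1, Dhx58, Eif2ak2, Ddx60 and Tlr3 had estimates between 1.57-fold and 2.81-fold over WT without passing the adjusted threshold. Mavs had a fold change near 1. That was 1 of 8 members called higher, against 0.473% of all genes. At an unadjusted p under 0.05, 7 of 8 members were higher, against 6.11% of all genes. In Trim24-/- Rara+/- livers, 0 of 8 members differed from WT by limma, against 0.055% of all genes called in either direction. None had an unadjusted p under 0.05, against 7.44% of all genes. All 8 overlapped WT, whereas 1.98% of all genes lay wholly above it and 2.63% wholly below.

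**Figure D1:**
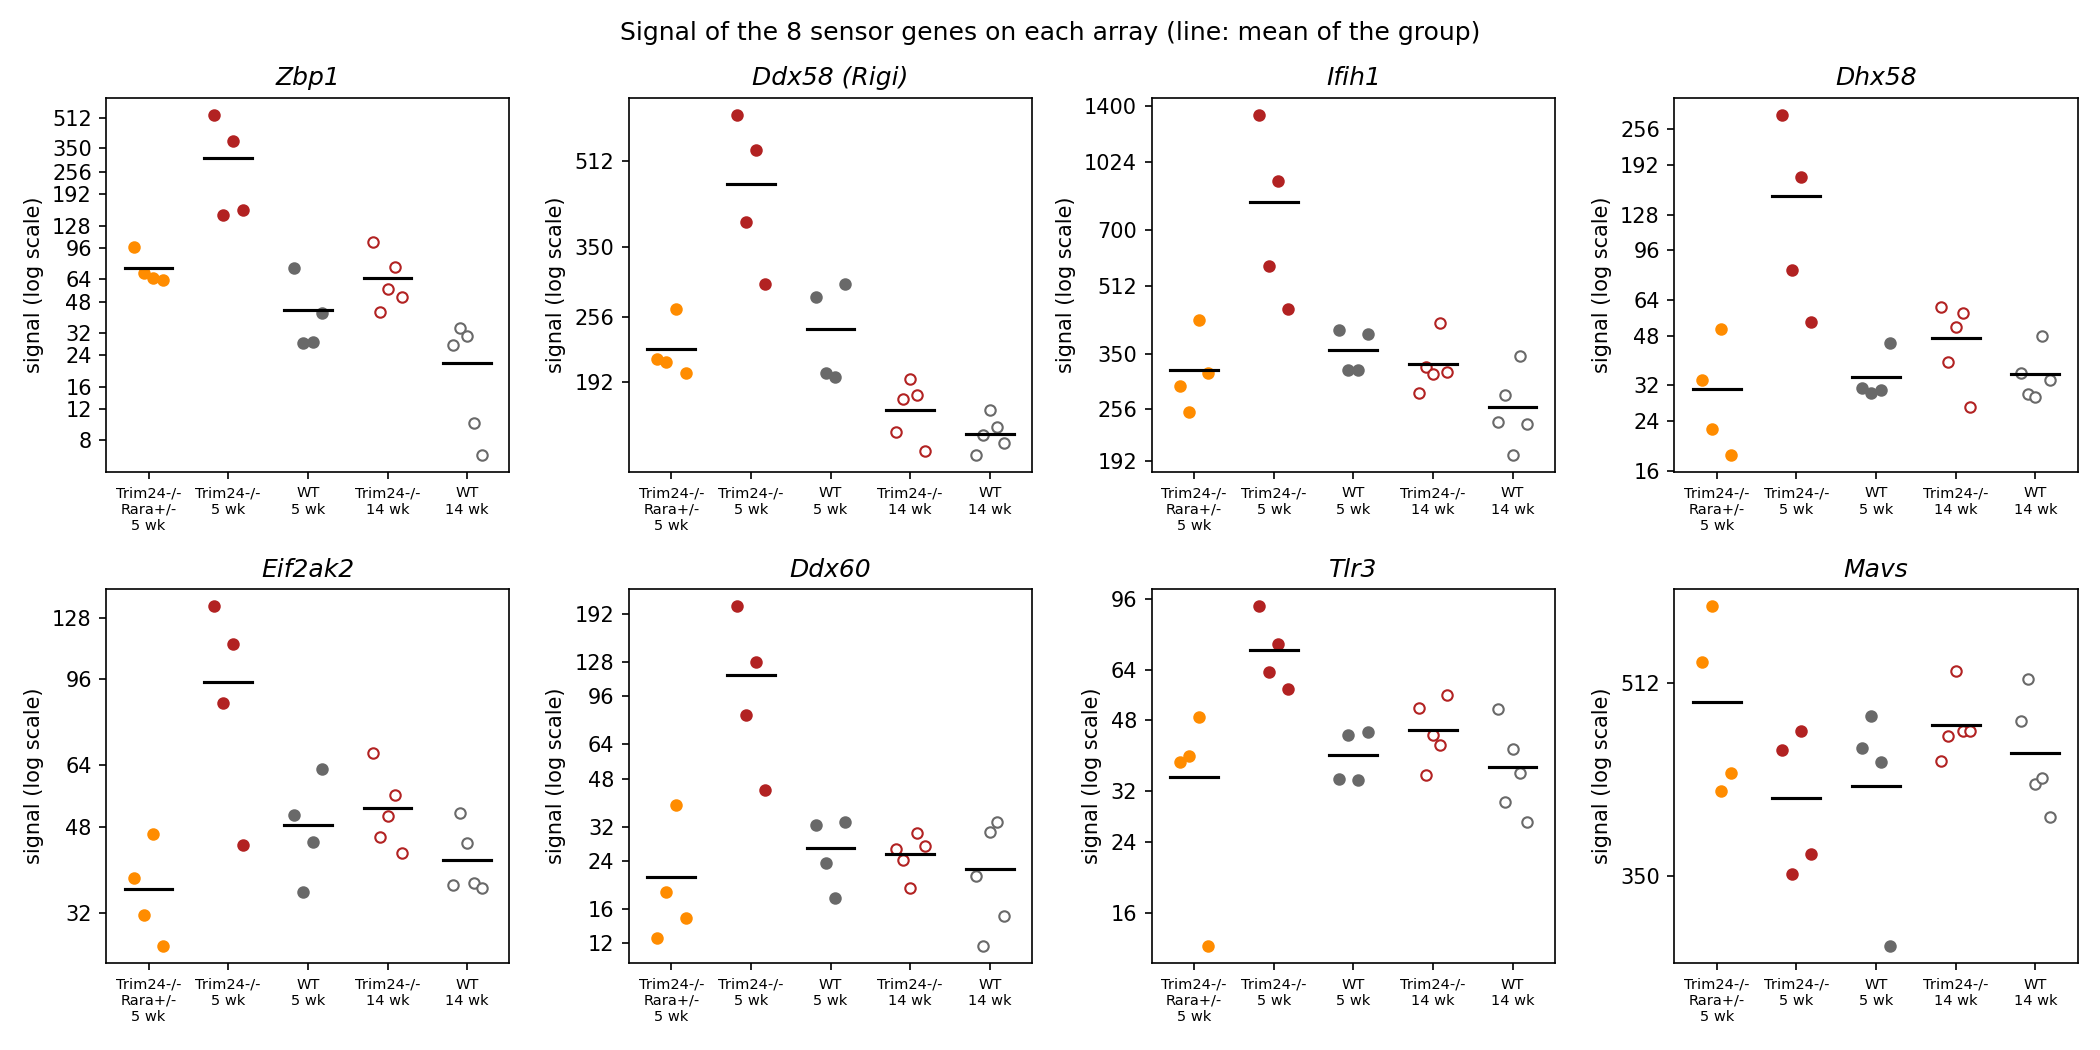
Signal of each of the 8 genes on each array (vertical axis, log scale), by group; each point is 1 animal and each line the mean of the group. The 5-week Trim24-/- animals reach 534.8 for Zbp1 and 1331 for Ifih1, the groups at 14 weeks lie close together for most genes, and Mavs shows no separation.

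The RNA helicases that feed Mavs come first. Ddx58 gave a signal of 212, 209, 266 and 199.6 in the 4 Trim24-/- Rara+/- livers and 629, 391, 539 and 296 in the 4 Trim24-/- livers, against 280.1, 199.5, 196 and 297 in the 4 WT livers (animals in the order listed above, as throughout at 5 weeks). Animals 1 and 8 lay well above every WT liver, animal 6 lay above them by less, and animal 37 lay just under WT animal 90, so the groups touched. The log2 difference between Trim24-/- and WT was 0.86 ± 0.21 (1.81-fold, limma adjusted p = 0.121). Trim24-/- Rara+/- livers, with a mean of 222 ± 29.8, against 243 ± 52.7 in WT (SD, n = 4 each), had a log2 difference of -0.11 ± 0.21.

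Ifih1 (MDA5), which prefers long double-stranded RNA, read 291, 252, 423 and 313 in Trim24-/- Rara+/- livers and 1331, 570.4, 918 and 449 in Trim24-/- livers, against 399, 319.6, 318 and 391 in WT livers. All 4 Trim24-/- livers lay above all 4 WT livers, and the Trim24-/- Rara+/- livers spanned the WT range. The log2 difference between Trim24-/- and WT was 1.04 ± 0.27 (2.06-fold, adjusted p = 0.143 by limma).

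Dhx58 (LGP2) lacks the signalling domain of the other two helicases and tunes their activity. Its signal was 33.5, 22.4, 50.6 and 18.2 in Trim24-/- Rara+/- livers and 287, 81.7, 174 and 53.5 in Trim24-/- livers, against 31.4, 30.1, 30.8 and 45.3 in WT livers. The lowest Trim24-/- liver, animal 37, was above the highest WT liver, animal 90, by a small margin, while animal 1 stood several-fold above all WT. The log2 difference was 1.49 ± 0.37 (95% confidence interval 0.68 to 2.30, limma adjusted p = 0.124). Mavs, to which Ddx58 and Ifih1 bind, read 534, 596, 414 and 428 in Trim24-/- Rara+/- livers and 449, 351, 466.3 and 365 in Trim24-/- livers, against 451, 479.6, 438 and 305 in WT livers. The 3 groups overlapped throughout. The log2 difference of Mavs between Trim24-/- and WT was -0.02 ± 0.16, with a 95% confidence interval from -0.38 to 0.33.

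Zbp1 showed the largest difference among the 8. Its signal was 97.6, 69.9, 65.3 and 63.2 in Trim24-/- Rara+/- livers and 535, 147, 381 and 157 in Trim24-/- livers, against 74.4, 28.1, 28.4 and 41.6 in WT livers. All 4 Trim24-/- livers were above all livers of the other 2 groups, with animals 1 and 8 far above animals 6 and 37. Zbp1 averaged 305 ± 187 in Trim24-/- and 43.1 ± 21.8 in WT livers (SD, n = 4 each), a log2 difference of 2.31 ± 0.36 (4.96-fold, limma adjusted p = 0.0191). The Trim24-/- Rara+/- livers lay within the WT range but for animal 54, which was above it, with a log2 difference of 0.66 ± 0.36 from WT (adjusted p = 0.764 by limma). The call for Trim24-/- over WT rested on single animals: the limma adjusted p was 0.0612 without WT animal 44, 0.0715 without WT animal 45 and 0.0701 without Trim24-/- animal 8. It was 0.091 when only the 8 arrays of the 2 groups were fitted and 0.110 without Trim24-/- animals 1 and 8, whose estimate was then 1.57.

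Eif2ak2 (PKR), the kinase that phosphorylates the translation factor eIF2 alpha, read 37.8, 31.7, 46.4 and 27.4 in Trim24-/- Rara+/- livers and 135, 86.0, 113 and 44.1 in Trim24-/- livers, against 50.7, 35.3, 44.6 and 63.0 in WT livers. Animals 1, 8 and 6 were above all WT livers, and animal 37 lay inside the WT range. The log2 difference was 0.72 ± 0.24 (1.65-fold, limma adjusted p = 0.280).

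Ddx60, an interferon-induced helicase whose part in RNA sensing is less settled, read 12.5, 18.4, 38.4 and 14.8 in Trim24-/- Rara+/- livers and 205, 81.9, 129 and 43.7 in Trim24-/- livers, against 32.4, 23.5, 17.6 and 33.4 in WT livers. All Trim24-/- livers were above all WT livers, and 3 of the 4 Trim24-/- Rara+/- livers were at the low end of WT or under it. The log2 difference between Trim24-/- and WT was 1.47 ± 0.33 (2.77-fold, limma adjusted p = 0.0824), the smallest p among the members not called. Tlr3, the endosomal receptor for double-stranded RNA, read 37.9, 39.1, 48.9 and 13.2 in Trim24-/- Rara+/- livers and 92.0, 63.1, 74.3 and 57.3 in Trim24-/- livers, against 34.3, 44.2, 34.2 and 44.95 in WT livers. The Trim24-/- livers were all above the WT livers, by less than for Ddx60, and animal 82 of the Trim24-/- Rara+/- group stood lowest of the 12. The log2 difference of Tlr3 between Trim24-/- and WT was 0.65 ± 0.21 (limma adjusted p = 0.262).

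Counted over the members, the Trim24-/- livers lay wholly above WT for 5 of 8 (Zbp1, Ifih1, Dhx58, Ddx60 and Tlr3), against 3% of all genes. The median log2 difference was 0.95 over the members and -0.01 over all genes. Because the members were chosen with earlier results of these data known, such contrasts with all genes are descriptive. Single animals moved the count of members called. Without Trim24-/- animal 37, 6 of 8 were called, with Ddx58 at 1.04 (limma adjusted p = 0.0304), Ifih1 at 1.28 (0.0393), Dhx58 at 1.83 (0.0281), Eif2ak2 at 0.99 (0.0317) and Ddx60 at 1.79 (0.0158) joining Zbp1. Without Trim24-/- animal 8, WT animal 44 or WT animal 45, 0 of 8 were called. In that order, 14, 39 and 12 of all 18194 genes were then called in either direction. With all 22 arrays in 1 fit, 5 of 8 were called: Zbp1, Ddx58 (limma adjusted p = 0.0175), Ifih1 (0.0374), Dhx58 (0.0184) and Ddx60 (0.00906). The number of all genes called moved as well, from 12 to 137 with 1 animal left out and from 10 to 149 over the 27 alternatives.

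The 4 Trim24-/- animals differed among themselves, and they ranked alike from gene to gene. For Ddx58, Ifih1, Dhx58, Eif2ak2, Ddx60 and Tlr3 the order was animal 1, then 8, then 6, then 37. That order held for 6 of 8 members, against 4.74% of all 18194 genes. Zbp1 differed only in that animal 37 was slightly above animal 6, and Mavs had animal 8 first. Animals 1 and 8 were the 2 highest for 8 of 8 members, against 18.7% of all genes. Taken over the 8 members, the median log2 level minus the WT mean was 1.60 in animal 1, 1.23 in animal 8, 0.68 in animal 6 and 0.37 in animal 37. The members are not independent of each other in these ranks, since all are read from the same 4 RNA samples.

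**Figure D2:**
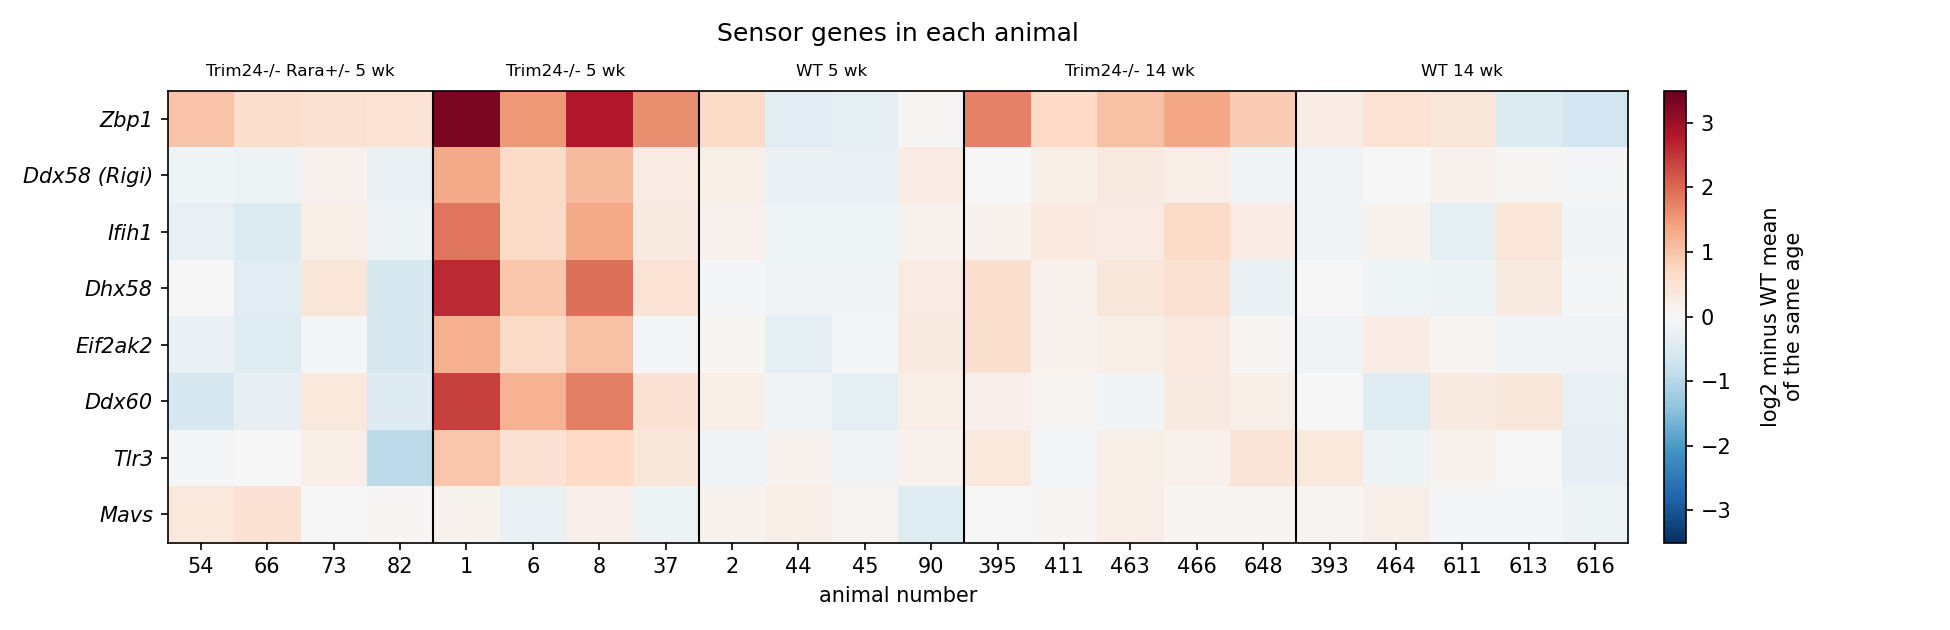
Log2 level of each gene (rows) in each animal (columns, by group) minus the mean of the WT animals of the same age; red is above and blue below that mean. Animals 1 and 8 of the 5-week Trim24-/- group stand out for all rows but Mavs, animal 37 is the palest of the 4 in the rows from Ddx58 to Tlr3, and the Zbp1 row is red in all 14-week Trim24-/- animals.

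The spread between animals also differed between the groups, though the added constant narrows it more in dim livers. No share of all genes was counted for it. The SD of the log2 level was 0.95 for Dhx58 in Trim24-/- livers, against 0.20 in WT livers, and 0.69 for Ifih1, against 0.17 in WT livers. It was 0.80 for Ddx60, against 0.26 in WT, and 0.88 for Zbp1, against 0.49 in WT. Mavs had the opposite order, with 0.20 in Trim24-/- livers, against 0.28 in WT livers. In Trim24-/- Rara+/- livers the SD was above that in Trim24-/- livers for Tlr3 (0.51 against 0.25) and Mavs (0.24 against 0.20). It was below that in Trim24-/- livers for the other members.

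Loss of 1 Rara allele on top of the Trim24 disruption was tested directly. Comparing Trim24-/- Rara+/- with Trim24-/- livers, 0 of 8 members passed limma's adjusted test, against 0.104% of all genes called lower, and 7 of 8 were lower at an unadjusted p under 0.05, against 7.15% of all genes. The estimates ran from -1.71 for Ddx60 (SE 0.33, adjusted p = 0.0732), through -1.65 for Zbp1 (SE 0.36, adjusted p = 0.0876), -1.62 for Dhx58 and -1.21 for Ifih1, to -0.83 for Tlr3. Those of Eif2ak2 and Ddx58 were -1.03 and -0.97, and that of Mavs was 0.26 (SE 0.16). The Trim24-/- Rara+/- livers lay wholly under the Trim24-/- livers for 6 of 8 members, against 5.13% of all genes. Eif2ak2, where animal 73 overlapped animal 37, and Mavs were the exceptions.

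The result of that comparison again turned on animal 37. Without it, 6 of 8 members were called lower by limma, with estimates of -1.89 for Zbp1 (adjusted p = 0.0491), -1.15 for Ddx58 (0.0282), -1.45 for Ifih1 (0.0283), -1.96 for Dhx58 (0.0282), -1.30 for Eif2ak2 (0.0150) and -2.03 for Ddx60 (0.0140). Without Trim24-/- Rara+/- animal 73, Ddx60 alone was called. With array weights, or with all 22 arrays in 1 fit, 6 of 8 members were called. These settings also called more of all 18194 genes than the main fit, in either direction. The totals were 101 without animal 37, 50 without animal 73, 325 with array weights and 101 with all 22 arrays. The comparisons with Trim24-/- and of Trim24-/- with WT share the 4 Trim24-/- arrays, so a high value there enters both with opposite sign. Set against WT, the Trim24-/- Rara+/- livers had a median log2 difference of -0.15 over the 8 members and -0.02 over all genes. The limma adjusted p of the members in that comparison ran from 0.764 to 0.967.

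**Figure D3:**
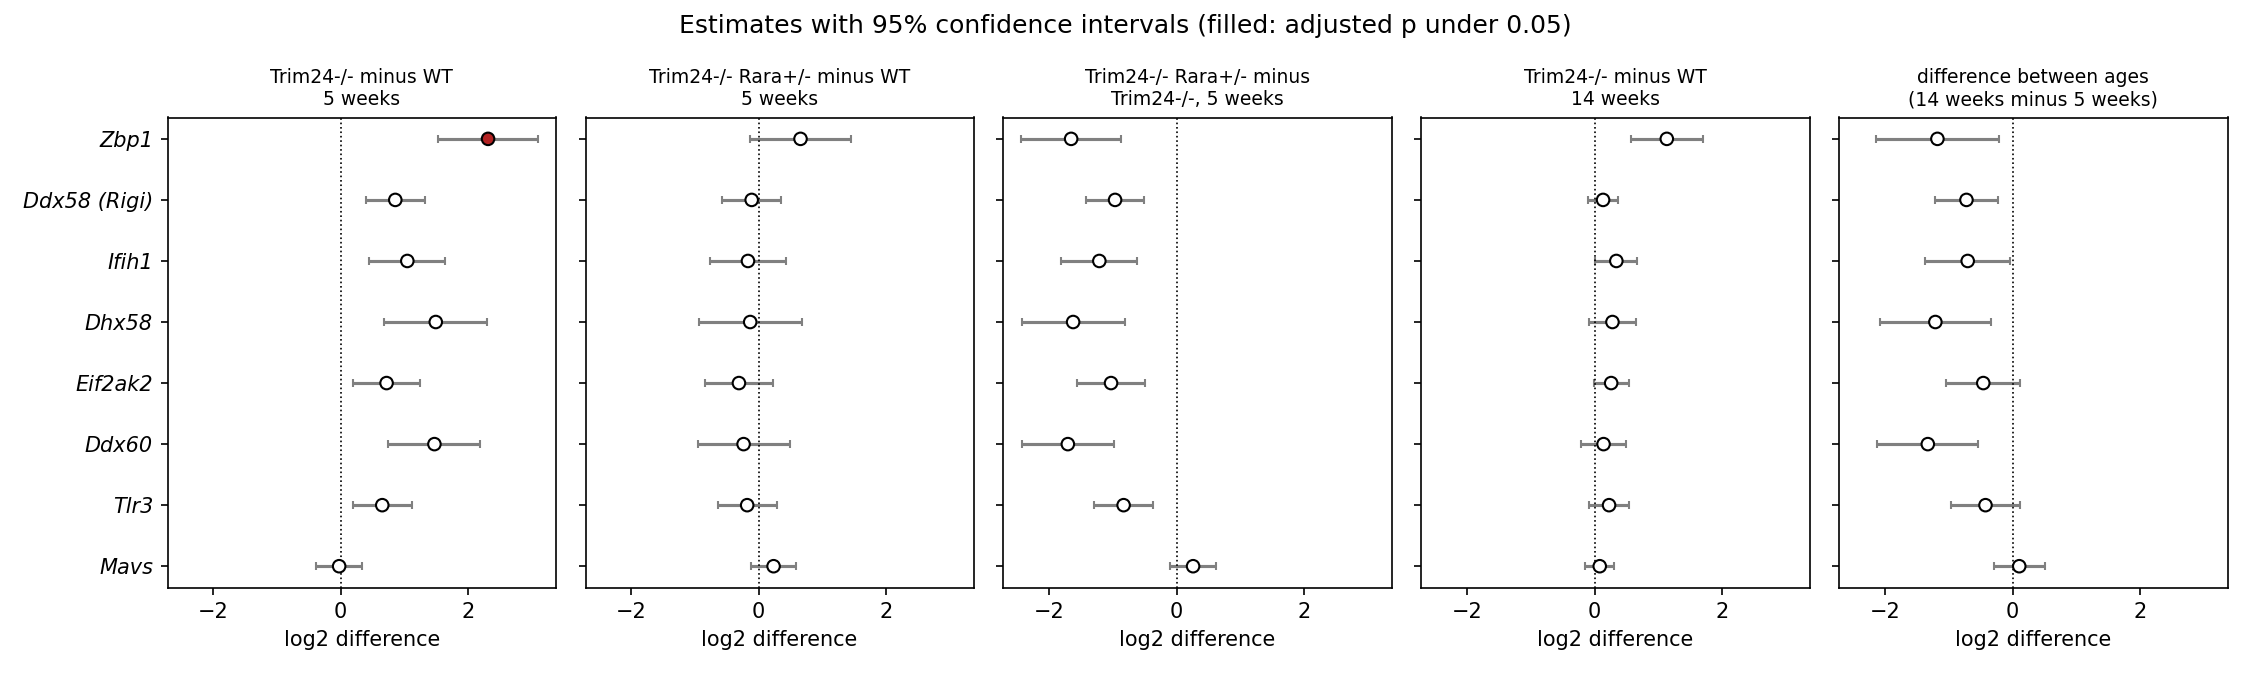
Log2 difference (horizontal axis) with its 95% confidence interval for each gene in each comparison; a filled point has an adjusted p under 0.05. Zbp1 in Trim24-/- minus WT at 5 weeks is the only filled point. The intervals of Trim24-/- Rara+/- minus WT all include 0.

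At 14 weeks, estimates for all 8 members were positive in Trim24-/- livers, as were those of 50.3% of all genes, and most were small. By limma, 0 of 8 passed the adjusted test, against 0.181% of all genes called higher, and 2 of 8 (Zbp1 and Ifih1) had an unadjusted p under 0.05, against 4.66% of all genes. Zbp1 read 42.0, 50.9, 56.6, 75.1 and 103 in the 5 Trim24-/- livers, against 6.64, 9.98, 27.4, 31.0 and 34.3 in the 5 WT livers (from low to high, as throughout at 14 weeks). Every Trim24-/- liver was above every WT liver, though 2 WT livers were under the added constant of 16 and are close to background. The log2 difference of Zbp1 was 1.13 ± 0.26 (2.19-fold, limma adjusted p = 0.146). Zbp1 was the 1 of 8 members without overlap at that age, against 1.07% of all genes.

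Ifih1 read 281, 313, 315, 325 and 416 in Trim24-/- livers at 14 weeks, against 198, 236, 239, 277 and 345 in WT livers. The groups overlapped through the highest WT liver, and the log2 difference was 0.34 ± 0.15 (limma adjusted p = 0.595). Ddx58 averaged 169.6 ± 21.5 in Trim24-/- and 153 ± 11.5 in WT livers (SD, n = 5 each). Dhx58 averaged 47.0 ± 13.9 in Trim24-/- and 35.1 ± 7.48 in WT livers, and Eif2ak2 averaged 52.4 ± 10.01 in Trim24-/- and 41.0 ± 6.69 in WT livers. These 3 overlapped between the genotypes, with log2 differences of 0.13, 0.28 and 0.26. Ddx60 averaged 25.5 ± 4.24 in Trim24-/- and 22.4 ± 9.41 in WT livers, Tlr3 45.5 ± 8.02 in Trim24-/- and 36.9 ± 9.59 in WT livers, and Mavs 471 ± 31.9 in Trim24-/- and 446 ± 49.5 in WT livers. The median log2 difference was 0.24 over the members and 0.00 over all genes.

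Whether the genotype difference itself changed with age was tested as an interaction over all 22 arrays. The difference at 14 weeks minus that at 5 weeks was -1.33 ± 0.38 for Ddx60 (unadjusted p = 0.00223, limma adjusted p = 0.402), -1.21 ± 0.42 for Dhx58, -1.18 ± 0.47 for Zbp1, -0.72 ± 0.24 for Ddx58 and -0.70 ± 0.32 for Ifih1. For Eif2ak2 it was -0.46 ± 0.28, for Tlr3 -0.42 ± 0.26 and for Mavs 0.11 ± 0.19. By limma 0 of 8 passed the adjusted test, against 0.033% of all genes called in either direction, and 5 of 8 had an unadjusted p under 0.05 in the negative direction, against 3.29% of all genes. The 2 ages also differed in Xist, at 947.9 to 2169 on the 5-week arrays and 13.4 to 44.5 on the 14-week arrays, and in the Y-linked Eif2s3y, at 0.350 to 6.59 and 245.0 to 344, in the same order of ages. Age and sex therefore cannot be told apart, and no test was made of a member's level between the ages. The array sets differed too: every 5-week array had a median signal of 16.1 or less, whereas the lowest 14-week median was 19.7. Ddx60 averaged 22.4 in WT and 25.5 in Trim24-/- livers of the older mice, within the spread of their array medians. The interaction thus cannot separate age from sex or from array signal, whose part was not tested.

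As a description, the mean log2 level over the 5 groups was highest in Trim24-/- livers at 5 weeks for every gene but Mavs. Its range lay apart from the next group in order for Zbp1 (the Trim24-/- Rara+/- livers), Ifih1 and Ddx60 (WT livers at 5 weeks) and Tlr3 (Trim24-/- livers at 14 weeks). Of all genes, 5.13% lay wholly under the Trim24-/- livers in Trim24-/- Rara+/- livers. In Trim24-/- livers, 3% of all genes lay wholly above WT at 5 weeks. For Ddx58, Dhx58 and Eif2ak2 it overlapped the next group. Below that first place, all neighbours in the order overlapped, except that Ddx58 at 5 weeks in Trim24-/- Rara+/- livers lay above Ddx58 at 14 weeks in Trim24-/- livers. For separations between the ages no share of all genes was counted, and the ages also differ in sex-linked signals and median array signal. The 5 groups of Mavs formed an order in which every neighbour overlapped.

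The 18 probe sets gave a like picture, with a few that were too dim to read. In Trim24-/- against WT livers at 5 weeks, 17 of 18 estimates were positive, against 44.6% of all probe sets, and 10 were higher at an unadjusted p under 0.05, against 4.47%. Of the 18, 1 was called over all 45101 probe sets (1429947_a_at of Zbp1, limma adjusted p = 0.0300), against 0.182% of all probe sets called higher. The other Zbp1 probe set, 1419604_at, had an estimate of 2.05 ± 0.47. The other Ddx58 probe sets had 0.67 ± 0.20 (1456890_at) and 0.28 ± 0.23 (1446457_at). For Dhx58 the estimates were 1.27 ± 0.40 (1420768_a_at) and 0.14 ± 0.14 (1420769_at, under a signal of 16 on 9 of the 12 arrays at 5 weeks). The former was also dim, under 16 in 4 of 4 WT, 3 of 4 Trim24-/- Rara+/- and 1 of 4 Trim24-/- livers.

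The other probe sets of Eif2ak2 had smaller estimates than the one tested above, at 0.38 ± 0.24 (1422005_at) and 0.40 ± 0.20 (1422006_at). That of Tlr3, 1422781_at, had 0.31 ± 0.15. Ddx60 1439114_at reached at most 16.2 on any of the 22 arrays, near background. Mavs 1439185_x_at had 0.03 ± 0.25. In Trim24-/- Rara+/- against Trim24-/- livers, 17 of 18 estimates were negative, against 52.1% of all probe sets, and 12 were lower at an unadjusted p under 0.05, against 5.28%. By limma 0 were called, against 0.0377% of all probe sets called lower. At 14 weeks 17 of 18 were positive in Trim24-/- livers, against 48.5% of all probe sets, and 3 were higher at an unadjusted p under 0.05, against 3.89%. Mavs 1439185_x_at also set the ages apart, at 504 to 1120.3 on the 5-week arrays and 164 to 287 on the 14-week arrays, which the tested Mavs probe set did not.

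**Figure D4:**
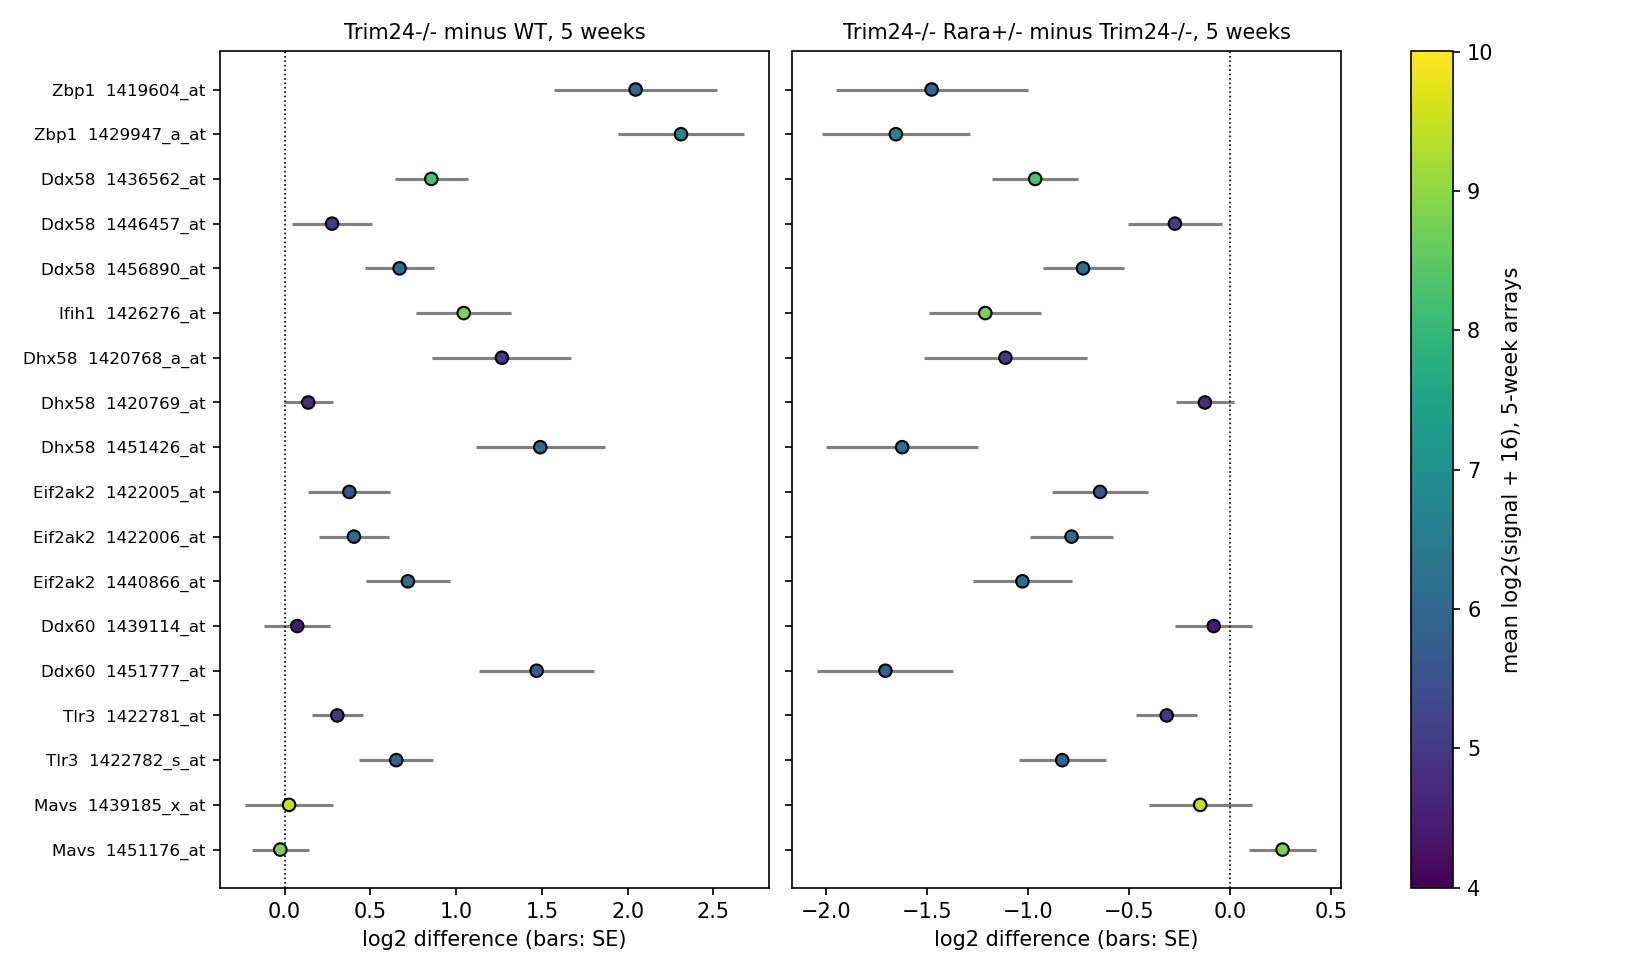
Log2 difference (horizontal axis, bars: SE) of each of the 18 probe sets in Trim24-/- minus WT (left) and Trim24-/- Rara+/- minus Trim24-/- (right) at 5 weeks, coloured by mean log2 level. Each gene's probe sets share a sign in both panels, except those of Mavs, whose 2 probe sets lie on opposite sides of 0 in each. The estimates of Dhx58 1420769_at and Ddx60 1439114_at, both dim, lie near 0.

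To see which genes tracked each sensor from animal to animal, Pearson correlations were taken over the 22 arrays after subtracting each group's mean, among 8329 genes above a log2 level of 6. They describe these arrays only, since the arrays share their processing and the genes named are the highest of so many. Nearest to Ifih1 were Gbp7 (r = 0.902), Rnf213 (0.899) and Ifit1 (0.873), and nearest to Ddx58 were Rnf213 (0.892), Irf7 (0.852) and Cd2ap (0.843). Nearest to Eif2ak2 were Pnpt1 (0.886), Rnf213 (0.849) and Cd2ap (0.840). Zbp1 had other neighbours, Prpf4 (0.867), Surf2 (0.819) and Prpf6 (0.792), and Mavs others again, Acads (0.876), Lamtor4 (0.864) and Naa60 (0.863). Without the pair of arrays on which the sensor lay farthest out, r of these named genes ran from 0.677 (Eif2ak2 with Rnf213) to 0.852 (Zbp1 with Prpf4). Dhx58, Ddx60 and Tlr3 averaged under that log2 level and were not searched. Among the members, r over the 22 arrays was 0.841 for Ifih1 with Dhx58, 0.830 for Dhx58 with Eif2ak2 and 0.820 for Ddx58 with Eif2ak2. The rank correlations (Spearman) of these pairs were lower, at 0.667, 0.691 and 0.737. Mavs gave between -0.02 and 0.40 with the other members, and Tlr3 between 0.19 and 0.54.

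The rest of the pathway was read from 8 lists of genes. Downstream of Mavs and Tlr3, 1 of 15 measured adaptors, kinases and transcription factors rose in Trim24-/- livers at 5 weeks. The share of all genes called higher was 0.473%. The gene of this list was Irf7, the interferon-induced factor that drives type I interferon genes. Irf7 read 1490.3, 457, 1294 and 464.2 in the 4 Trim24-/- livers, and its mean was 265 ± 99.4 in Trim24-/- Rara+/- livers and 927 ± 544 in Trim24-/- livers, against 198 ± 49.1 in WT livers (SD, n = 4 each). Animals 1 and 8 were again the 2 highest. The log2 difference between Trim24-/- and WT was 1.96 ± 0.37 (3.89-fold, limma adjusted p = 0.0387), that between Trim24-/- Rara+/- and Trim24-/- was -1.60 ± 0.37 (adjusted p = 0.102), and that at 14 weeks was 0.54 ± 0.13 (adjusted p = 0.173). Irf7 was no longer called in 16 of 27 alternatives, among them the removal of any single WT animal, of Trim24-/- animal 1 or 8, or of Trim24-/- Rara+/- animal 54, 66 or 82, with a limma adjusted p of up to 0.191 over the alternatives. Irf3, the factor held in the cytosol until a sensor is engaged, averaged 443 ± 52.6 in Trim24-/- and 437 ± 56.0 in WT livers, a log2 difference of 0.02 ± 0.12. Ifnb1, encoding interferon beta, was near background, at 4.47 ± 5.90 in Trim24-/- and 10.6 ± 6.25 in WT livers.

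Sensing of DNA has its own list. In Trim24-/- livers at 5 weeks, 1 of its 14 measured genes rose, against 0.473% of all genes, and 0 fell. The gene that rose was Samhd1, a nucleotide hydrolase that limits the substrate of reverse transcription. Samhd1 averaged 111 ± 22.4 in Trim24-/- Rara+/- livers and 180.1 ± 23.7 in Trim24-/- livers, against 103 ± 15.2 in WT livers (SD, n = 4 each). Its log2 difference between Trim24-/- and WT was 0.72 ± 0.14 (limma adjusted p = 0.0473). It no longer passed in 18 of 27 alternatives, which included the removal of any single Trim24-/- animal, of any WT animal but 90, or of Trim24-/- Rara+/- animal 54 or 66, and the mean of its probe sets gave 0.22 (limma adjusted p = 0.641). Cgas and Sting1, the cytosolic DNA sensor and its adaptor, had log2 differences of 0.25 ± 0.15 and 0.19 ± 0.22. The median of the list was 0.22.

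Of the 8 partners of Zbp1 in cell death, 0 passed limma's adjusted test in Trim24-/- against WT livers, against 0.473% of all genes called higher. At an unadjusted p under 0.05, 4 were higher, against 6.11% of all genes, and the median was 0.42. Against 0.104% of all genes called lower, 1 of 8 fell between Trim24-/- Rara+/- and Trim24-/- livers. It was Mlkl, the pore-forming effector of necroptosis, at 37.8 ± 9.98 in Trim24-/- Rara+/- livers and 110.2 ± 32.1 in Trim24-/- livers, with 51.0 ± 17.7 in WT livers, a log2 difference of -1.22 ± 0.21 between the mutants (limma adjusted p = 0.0461). Mlkl likewise failed to pass in 18 of 27 alternatives, which included the removal of any Trim24-/- animal but 37, any WT animal but 90, or any Trim24-/- Rara+/- animal but 73, with a limma adjusted p of up to 0.650. Ripk3, the kinase through which Zbp1 acts, had 0.38 ± 0.14 in Trim24-/- against WT livers. Adar, which edits double-stranded RNA and restrains both Ifih1 and Zbp1, had 0.60 ± 0.14 (limma adjusted p = 0.107).

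By limma, 0 genes of the other 5 lists passed the adjusted test at 5 weeks in Trim24-/- against WT livers. At an unadjusted p under 0.05, the higher genes numbered 1 of 14 regulators of Ddx58 and Ifih1 (median log2 difference 0.12), 3 of 12 eIF2 kinases and targets (0.10), 3 of 15 Toll-family genes (0.10), 6 of 18 interferons, receptors and JAK-STAT genes (0.05) and 2 of 15 other DEAD and DEAH box helicases (0.08), against 6.11% of all genes. Of the Toll family, Tlr9 was lower at that threshold, at -0.50 ± 0.19. The regulator was Nlrc5, at 0.69 ± 0.24. The other helicases share the fold of Ddx58, Ifih1, Dhx58 and Ddx60 and had estimates on either side of 0. Across all 8 lists, 0 genes were called by limma in Trim24-/- Rara+/- against WT livers, in Trim24-/- against WT livers at 14 weeks, or in the interaction.

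**Figure D5:**
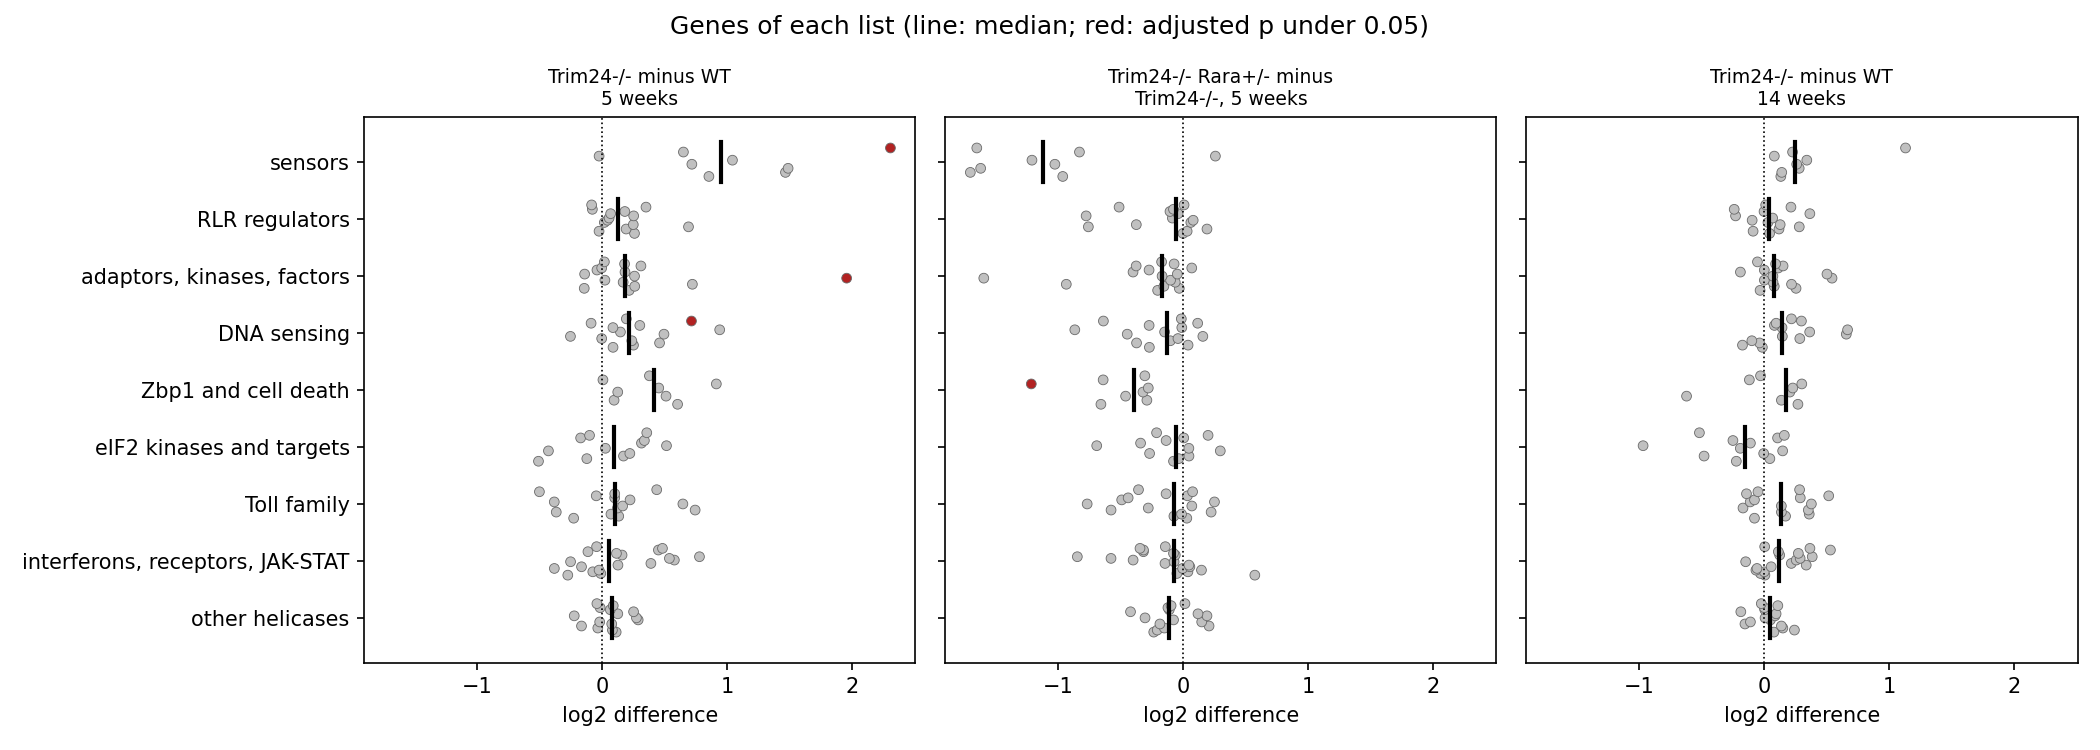
Log2 difference (horizontal axis) of each gene of the sensor group and of the 8 pathway lists (rows) in 3 comparisons; each point is a gene, the line is the median and red marks an adjusted p under 0.05. The sensors' median lies at 0.95, -1.12 and 0.24 from left to right, and the medians of the other lists lie nearer 0.

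Markers of the cell types that could carry these genes were read beside them. Of 15 macrophage and Kupffer cell markers, 13 had a positive estimate in Trim24-/- against WT livers at 5 weeks, against 47.9% of all genes. At an unadjusted p under 0.05, 4 were higher, against 6.11% of all genes, and Cd163, a scavenger receptor, was lower (-0.74 ± 0.32). Of the 15, 1 rose, against 0.473% of all genes. The marker that rose was Mpeg1, encoding a pore-forming protein of phagocytes (1.69 ± 0.30, limma adjusted p = 0.0275). Mpeg1 averaged 392.1 ± 238 in Trim24-/- Rara+/- livers and 991 ± 263 in Trim24-/- livers, against 293 ± 63.8 in WT livers, and it did not pass once any WT animal but 90, or either of Trim24-/- animals 1 and 8, was removed (limma adjusted p of 0.0542 to 0.105). The summed signal of the 15 markers ranged from 6583 to 10769.6 in Trim24-/- Rara+/- livers and from 6563 to 13125 in Trim24-/- livers, against 4917 to 9768 in WT livers. Within the Trim24-/- group the sum was lowest in animals 1 and 8, which had the highest sensors, and highest in animal 37, which had the lowest median over the sensors. Mpeg1 did not follow the sum in that group, at 1364 in animal 1, 749 in animal 6, 909.6 in animal 8 and 943 in animal 37. In the Trim24-/- Rara+/- group, animal 73 had both the highest sum and the highest median over the sensors (0.24 over the WT mean). Among WT livers at 5 weeks, animal 90 had both (0.19). The part of these cells in the sensors' levels was not tested. At 14 weeks all 15 markers had positive estimates, against 50.3% of all genes, and 10 were higher at an unadjusted p under 0.05, against 4.66%, with 0 called by limma. The sum ranged from 5207 to 9668 in Trim24-/- livers, against 4446 to 5730.2 in WT livers.

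The 9 T and NK cell markers were near background, with a summed signal of 44.7 to 158 in Trim24-/- Rara+/- livers and 94.0 to 259.9 in Trim24-/- livers, against 70.7 to 83.8 in WT livers at 5 weeks. That of 5 B and plasma cell markers was 127 to 155 in Trim24-/- Rara+/- livers and 178 to 235 in Trim24-/- livers, against 39.6 to 140.0 in WT livers. At 5 weeks both sums were thus higher in every Trim24-/- liver than in any WT liver, though a sum mostly follows its brightest genes. At an unadjusted p under 0.05, 3 of 9 T and NK markers and 2 of 5 B and plasma markers were higher, against 6.11% of all genes. By limma 0 of either list were called, against 0.473% of all genes called higher. At 14 weeks the T and NK sum was 156 to 180 in Trim24-/- livers, against 125 to 143 in WT livers. The B and plasma sum overlapped at that age, at 236 to 789 in Trim24-/- livers, against 158 to 320 in WT livers. The part of these cells in the sensors' levels was not tested. At 5 weeks, the summed signal of 6 endothelial markers was 1614 to 1912 in Trim24-/- Rara+/- livers. It was 1131 in animal 1, 1580.3 in animal 6, 1064 in animal 8 and 1760.4 in animal 37 of the Trim24-/- group, against 1233 to 1810.04 in WT livers. That of 6 stellate cell markers was 3091 to 3436 in Trim24-/- Rara+/- livers. It was 2552 in animal 1, 3532 in animal 6, 2616 in animal 8 and 5423 in animal 37 of the Trim24-/- group, against 2516 to 3155 in WT livers. Both sums were thus lowest in animals 1 and 8 and highest in animal 37 within the Trim24-/- group, and their part in the sensors' levels was not tested. The 5 dendritic cell markers were near background, at 26.9 to 63.8 in Trim24-/- Rara+/- livers and 35.04 to 79.5 in Trim24-/- livers, against 24.002 to 45.9 in WT livers. The hepatocyte marker Alb read 9579.5 ± 1167 in Trim24-/- Rara+/- livers and 10738 ± 1958 in Trim24-/- livers, against 11394 ± 1149 in WT livers. Of the 7 measured hepatocyte markers, 1 had a positive estimate in Trim24-/- against WT livers at 5 weeks, against 47.9% of all genes. Their estimates ran from -0.55 to 0.08, with 0 under an unadjusted p of 0.05. At 14 weeks 0 of 7 were positive, against 50.3% of all genes.

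The signal of Trim24 itself was 450.4 ± 34.1 in Trim24-/- Rara+/- livers and 363 ± 84.7 in Trim24-/- livers, against 317 ± 111 in WT livers at 5 weeks, and 235 ± 59.3 in Trim24-/- livers, against 168 ± 24.2 in WT livers at 14 weeks. It was not lower in the mutants, and since the sources used here do not say where its probes lie relative to the disrupted part, it checks no label. Rara was near background at 5 weeks. Median signal per array was 12.6 to 16.1 at 5 weeks and 19.7 to 25.9 at 14 weeks, correlations between arrays of a group were 0.948 to 0.992, and no arrays were identical. Within their groups, WT animal 90, Trim24-/- animal 6 and Trim24-/- Rara+/- animal 82 had the highest median signal, at 16.04, 16.08 and 16.03. Leaving out animals 90 and 6 together, a setting chosen after seeing the data, kept Zbp1 called. Its call was lost without WT animal 44, WT animal 45 or Trim24-/- animal 8, as given above.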

How the data were processed

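Livers of 22 mice in 5 groups, taken from the sample titles, were measured on Affymetrix arrays after 2 rounds of amplification, per the labels' protocols. For 45101 probe sets the authors deposited linear intensity. On every array its mean was 100.001 after trimming 2% from each end, and no source used here names the software. Of the probe sets, 34958 carry 1 gene symbol in the platform annotation, which gave 18194 genes, 9012 of them with several probe sets. Arrays have no read depth, so the number of animals limits precision.

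From the deposited intensities, log2(signal + 16) was fitted with limma 3.58.1 in R 4.3.3 (lmFit, eBayes), 1 probe set per gene, without a filter. The 12 arrays at 5 weeks shared 1 fit, the 10 at 14 weeks another, and the interaction used all 22. Animals carry separate numbers in the labels, so p-values measure the spread between animals. The fit was tested on simulated data with known changes. The 8 genes, the pathway lists and the markers were chosen with earlier results of these data known. Named beyond the members were the interferon genes Irf3, Irf7 and Ifnb1 (another is not reported here), called genes of the lists and, per member above a log2 level of 6, the 3 genes most like it. Alternatives were pseudocounts, quantile and median scaling, other probe set rules, a level filter, an intensity trend, array weights, other sets of arrays and leaving out each animal. Motifs were searched in RefSeq promoter windows of GRCm38.p6, and no source used here gives the build behind the array.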

Additional observations from a re-analysis of the deposited data

Results flagged for a closer look

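Of 40 groups of animals (8 genes in 5 groups), 1 held a value far from the others. Dhx58 read 45.3 in WT animal 90 at 5 weeks, whereas the other 3 WT animals read 30.1 to 31.4, so that the gap took up 0.899 of the group's range, above Dixon's 95% critical value for 4 samples. About 1 in 20 groups is flagged by chance. Without that animal the log2 difference of Dhx58 between Trim24-/- and WT livers was 1.59 (limma adjusted p = 0.116), against 1.49 with it.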

How the results depend on the processing

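Each comparison was recomputed under 20 to 35 alternatives, and the limits lie in the small groups: every count of called genes moved with single animals. No paired analysis was possible because the animal numbers are not shared between groups. The alternatives that average animals or leave out a pair of animals were chosen after seeing the data. In Trim24-/- against WT livers at 5 weeks, 109 genes and 1 member were called. There were 34 genes with a pseudocount of 1, 19 genes and 0 members with only the arrays compared, 5 members with all 22 arrays, 28 genes and 0 members with animals 54, 66 and 82 averaged, 21 genes and 0 members with animals 1 and 8 averaged, and 10 genes and 0 members without animals 1 and 8. Leaving out 1 animal gave 12 to 137 genes and 0 to 6 members. In Trim24-/- Rara+/- against WT livers, 10 genes were called, 19 with centred arrays or only genes above the median level, 18 with array weights, 23 with only the arrays compared, 31 with all 22 arrays, 28 without WT animal 90 and Trim24-/- animal 6, 5 with animals 54, 66 and 82 averaged, 6 with animals 1 and 8 averaged, and 6 to 22 with 1 animal left out. No member was called there under any of 27 alternatives.

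In Trim24-/- Rara+/- against Trim24-/- livers, 26 genes and 0 members were called. There were 0 genes with a pseudocount of 1 and 55 with 64, 17 with quantile normalization, 13 with centred arrays, 102 genes and 2 members among genes above the median level, 52 genes with an intensity trend, 325 genes and 6 members with array weights, 5 genes with only the arrays compared, 101 genes and 6 members with all 22 arrays, 51 genes without animals 90 and 6, 0 with animals 54, 66 and 82 averaged, 5 with animals 1 and 8 averaged, and 0 without these. Leaving out 1 animal gave 0 to 101 genes and 0 to 6 members. At 14 weeks 44 genes and 0 members were called, with 28 genes at a pseudocount of 1, 74 among genes above the median level, 94 with all 22 arrays and 28 to 39 with 1 animal left out. With the mean of all probe sets 1 member was called, Zbp1 (0.97, limma adjusted p = 0.0458), and leaving out 1 animal called 0 members. In the interaction 6 genes were called, 5 to 11 with 1 animal left out, and 0 members under all 35 alternatives. The sign turned only for estimates near 0. Mavs in Trim24-/- against WT livers was 0.0271 with centred arrays, 0.000790 with the mean of probe sets and -0.164 to 0.0454 with 1 animal left out. Dhx58 in Trim24-/- Rara+/- against WT livers was 0.0112 with the mean of probe sets, 0.0491 with animals 54, 66 and 82 averaged and -0.315 to 0.00562 with 1 animal left out, and Tlr3 there was -0.318 to 0.0652. Ddx60 is not among the genes above the median level and has no value under that setting. The causes of these shifts were not tested. Signals under 16 are near background, which among the tested probe sets limits Zbp1 in WT livers at 14 weeks, Ddx60 in Trim24-/- Rara+/- livers at 5 weeks and WT livers at 14 weeks, and Tlr3 in Trim24-/- Rara+/- animal 82.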
